A study of Mus musculus with 4 samples.

Results

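A set of 9 genes that mark the parathyroid gland, the thyroid gland and cartilage were followed in mouse lung RNA: Pth, Gcm2 and Casr (parathyroid), Tg and Tshr (thyroid), and Acan, Matn1, Matn3 and Hapln1 (cartilage). The 9 members were all probes whose gene name on the array was one of these symbols, which gave 10 probes, of 31036 genes measured in all. They had been selected on their values in these same arrays, both on their differences between groups and on their differences between the deposited scanner files and the deposited value table. Every member value below is therefore a description and carries no test.

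RNA of whole lung was hybridised to Agilent whole-genome arrays in 1 colour (Cy3), with 1 array in each of 4 groups. The groups were Pla2g3+/+ (wild type) and Pla2g3-/- (knockout of the secreted phospholipase A2 gene Pla2g3), each as control and as antigen challenged. Each array carried RNA pooled from 4 samples, so no value has a biological replicate and no p-value was computed. The antigen model was sensitisation by ovalbumin (10 µg) in alum (1.3 mg) on days 0 and 14, then a 1% ovalbumin aerosol for 30 min on days 26, 27 and 28, with lungs taken 48 h later. The labels attach that protocol to every sample, and do not say what control mice received, or the age, sex or strain of the mice. In pooled tissue RNA, fewer cells of a type and less RNA per cell cannot be told apart.

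Parathyroid cells sense blood calcium through the calcium-sensing receptor and secrete parathyroid hormone, which raises it. Thyroid follicular cells make thyroglobulin, the protein scaffold on which thyroid hormone is built, under control of the thyrotropin receptor. Both glands lie beside the trachea in the neck, where the airway wall is held open by rings of hyaline cartilage built from type II collagen, aggrecan, link protein and matrilins. Lung parenchyma itself holds no gland of either kind, and its cartilage is limited to the walls of the large airways.

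The array measured each member through probes of 60 bases. The first 30 bases are shown, 5′ to 3′ in lower case with no base singled out, for the members whose values the results turn on. Positions are from the file headers, on mouse build mm9.
Pth, chr7:120529242-120529301, from base 505 of the transcript: actgacatatgctgctaccttttcaagctt
Gcm2, chr13:41197893-41197950, from base 1724 of the transcript: acagcattttgaaacctgcccacaccacac
Tg, chr15:66682078-66682137, from base 8231 of the transcript: agagtgaagaggaagacttggaagttggac
Matn1, chr4:130511217-130511276, from base 1827 of the transcript: tgtgtgagcgactgcgttcgttatttttcc
Acan, chr7:86259741-86259801, from base 7110 of the transcript: acaggctggctgaagagaagcagagccctc
The file headers place each of the 10 member probes on a transcript of its gene, and whether a position is coding or untranslated was not analysed here. Of all other probes on the array, 0 shared 20 bases with a member probe.

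The deposited values came in 2 sources that did not hold the same measurements. The scanner files give spot intensity, which was scaled as a level: log2 of the intensity minus log2 of the array's 75th percentile (1808 to 1986 intensity units). The authors' value table gives a linear signal whose 75th percentile was close to 1 in each column. Within a source the lowest correlation of log2 levels between arrays, across probes, was 0.986 (scanner files) and 0.989 (table), while arrays of the same name in the 2 sources correlated at 0.915 to 0.923. Each comparison was therefore made within a source and is given for both. In a scanner file a probe was above background by Agilent's flag, and in the table if its signal was over 5 times that of the median negative control.

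The gene named by the labels did not follow them. Pla2g3 was higher on the arrays labelled knockout than on those labelled wild type, by 3.19 (control) and 3.90 (challenged) on the log2 scale in the scanner files and by 4.46 and 4.66 in the table, on its brighter probe. The labels do not say whether that probe lies in the deleted part. The arrays are called WT-labelled and KO-labelled below, and a direction between them is one between labels.

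The parathyroid hormone gene Pth had the widest range of the 9 members in the scanner files. Its scanner intensity was 1754 on the WT-labelled control array, 375.1 on the KO-labelled control array, 45.9 on the WT-labelled challenged array and 147.6 on the KO-labelled challenged array. Both control arrays thus lay above both challenged arrays, over a 34.8-fold range, and all 4 were above background. The WT-labelled challenged array was lower than its control by 5.12 on the log2 scale (-5.12 ± 0.21, Agilent's error of the spots, 34.8-fold). In the KO-labelled pair the difference was -1.46 ± 0.21 (2.74-fold). The KO-labelled array was lower than the WT-labelled one among controls (-2.11 ± 0.20, 4.32-fold) and higher among challenged arrays (1.56 ± 0.21, 2.94-fold).

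In the value table Pth did not have this pattern. Its signal was 0.00152, 0.00182 and 0.00152 in the WT-labelled control, KO-labelled control and WT-labelled challenged columns, none of which was above background. The KO-labelled challenged column stood alone at 0.00737, at least 2.33-fold above its control and at least 2.32-fold above the WT-labelled challenged column. The array that was highest in the scanner files was thus at background in the table, and the direction of the KO-labelled challenge pair was opposite in the 2 sources.

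Gcm2 and Casr, the other parathyroid members, did not share the range of Pth. Gcm2, the transcription factor required to form the parathyroid, read 56.5, 43.7, 50.9 and 40.2 intensity units in the scanner files, in the order WT-labelled control, KO-labelled control, WT-labelled challenged and KO-labelled challenged, all above background. These 4 values span 1.40-fold. Casr, the calcium-sensing receptor, read 24.4, 30.3, 22.7 and 37.1 intensity units in the same order, a span of 1.52-fold, also above background on all 4 arrays. The WT-labelled challenge difference, which was -5.12 for Pth, was -0.01 ± 0.22 for Gcm2 and 0.03 ± 0.27 for Casr.

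In the table Gcm2 read 0.0113, 0.00917, 0.00923 and 0.00904 in the same order, with the highest signal again in the WT-labelled control column. Casr read 0.00725, 0.00476, 0.00947 and 0.00679, with both WT-labelled columns above both KO-labelled ones, whereas in the scanner files both KO-labelled arrays were higher. No difference of either gene reached 2-fold in any of the 4 comparisons in either source. The scanner differences ran from -0.47 to -0.01 for Gcm2 and from 0.03 to 0.58 for Casr, and the table differences of Casr from -0.61 (between labels, control) to 0.51 (KO-labelled challenge). On the scanner arrays, probes with levels from -7 to -4 that are spotted at least 5 times had a median SD between spots of 0.20 (95th percentile 0.75), which measures the spots of 1 array and not the spread between pools.

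**Figure D1:**
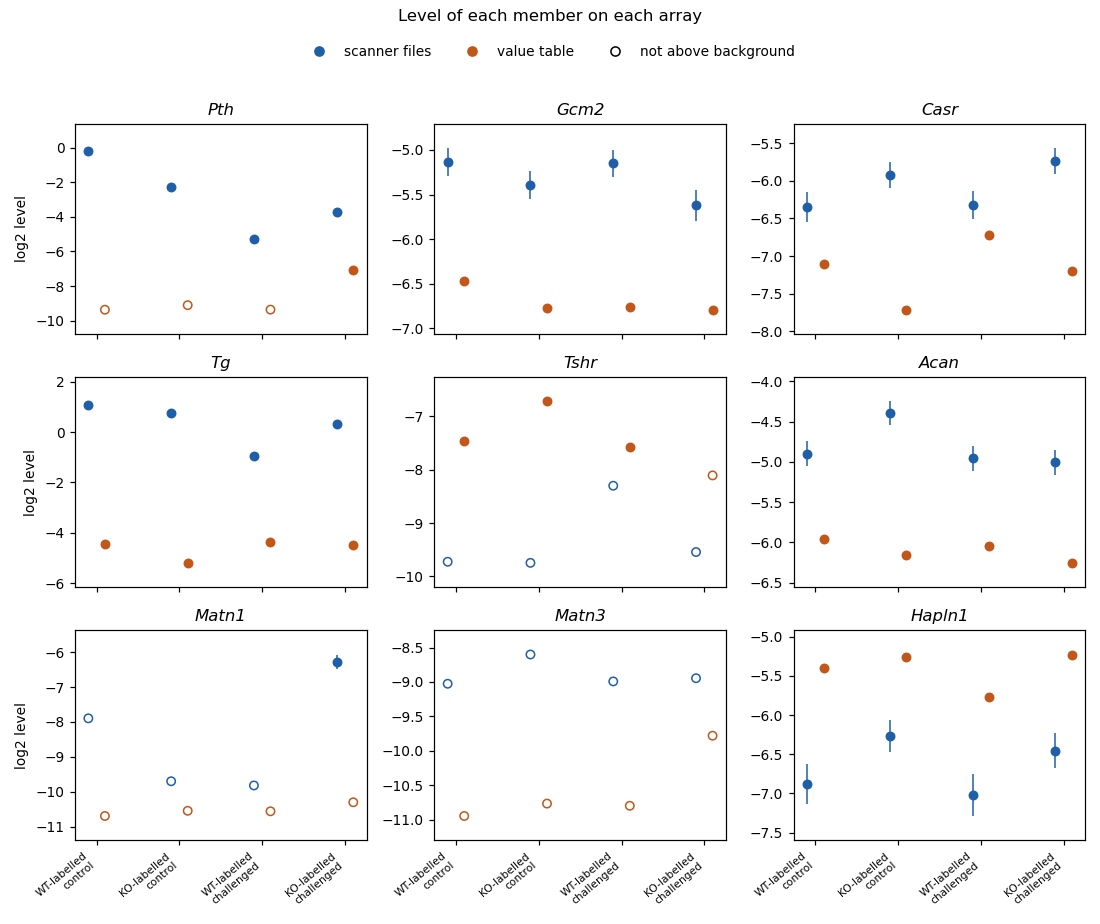
Log2 level (y axis, relative to the array's 75th percentile) of each member on each of the 4 arrays (x axis) in the scanner files and in the value table. Filled points were above background, open points were not, and bars are Agilent's error of the spot (scanner files only); each panel has its own y axis. Pth runs from -0.18 to -5.30 in the scanner files and is above background in 1 column of the table.

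The thyroglobulin gene Tg had the same order of scanner arrays as Pth over a smaller range. Its intensity was 4172 on the WT-labelled control, 3092 on the KO-labelled control, 929 on the WT-labelled challenged and 2435 on the KO-labelled challenged array. The WT-labelled challenged array was low and the other 3 were closer together. The WT-labelled challenge difference was -2.03 ± 0.20 (4.09-fold) and the KO-labelled one -0.45 ± 0.20 (1.37-fold). Between labels the difference was -0.32 ± 0.20 among controls and 1.26 ± 0.20 (2.40-fold) among challenged arrays.

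The table again gave another picture for Tg. The WT-labelled columns read 0.0459 (control) and 0.0485 (challenged) and the KO-labelled ones 0.0274 and 0.0446, all above background. The KO-labelled control column was the low one, the range was 1.77-fold, and no comparison reached 2-fold.

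Tshr, the thyrotropin receptor on the surface of follicular cells, was not above background on any scanner array with either of its 2 probes. In the table its brighter probe read 0.00569, 0.0095 and 0.00526 in the WT-labelled control, KO-labelled control and WT-labelled challenged columns, above background, and 0.00363 in the KO-labelled challenged column, which was not. The KO-labelled challenged column was at least 2.50-fold below its control. The scanner mean minus the table mean was 4.91 for Tg. For the brighter Tshr probe it was -1.87 as measured, but -0.23 with values at background set to the background limits. For the other Tshr probe, not above background in either source, it was 0.02 as measured. No direction between the sources is therefore read for Tshr.

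**Figure D2:**
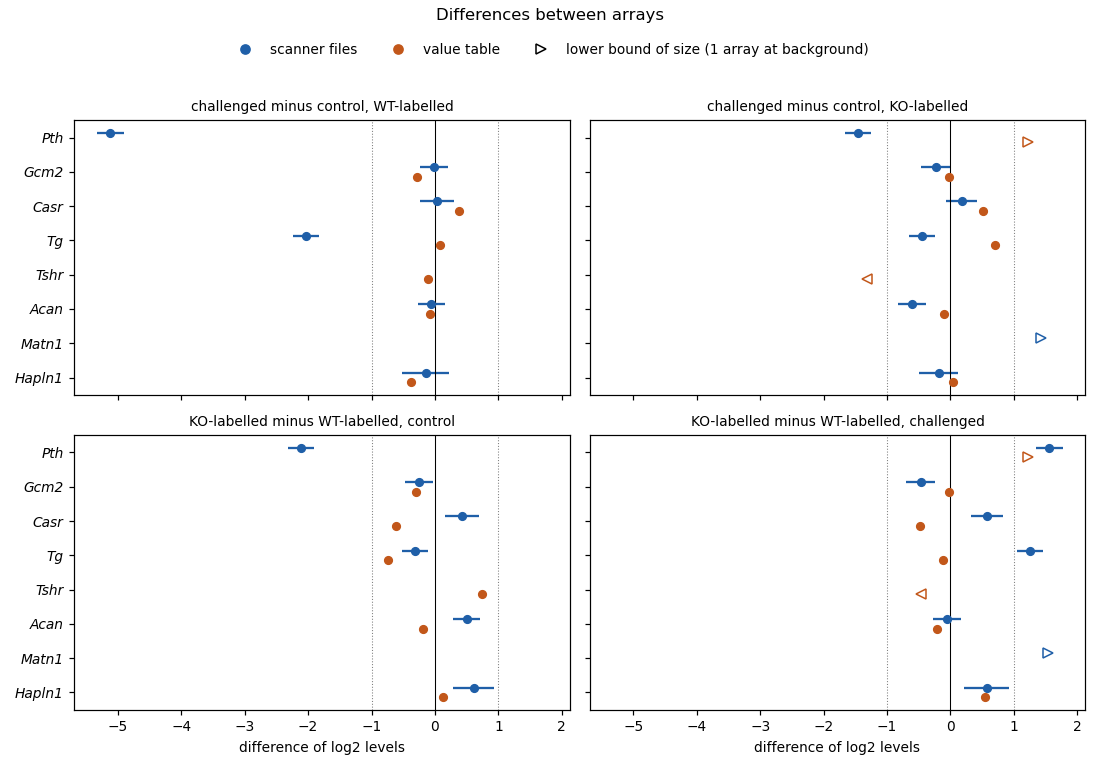
Difference of log2 levels (x axis) for 8 members (y axis, Matn3 left out because it was above background on no array) in the 4 comparisons, for the scanner files and the value table. Bars are Agilent's error of the spots (scanner files only), triangles are lower bounds of the size where 1 array of the pair was at background, and dotted lines mark 2-fold; in the WT-labelled challenge comparison Pth (-5.12) and Tg (-2.03) are the members past 2-fold, both in the scanner files.

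Of the cartilage members, Acan and Hapln1 differed by less than 2-fold in each comparison. Acan, which encodes aggrecan, the large proteoglycan that holds water in cartilage, read 66.5, 87.0, 58.2 and 61.5 intensity units in the scanner files, in the order WT-labelled control, KO-labelled control, WT-labelled challenged and KO-labelled challenged. The KO-labelled control array was highest, 1.42-fold above the WT-labelled control. Acan signals in the table were 0.016, 0.0141, 0.0151 and 0.0131 in that order, within 1.22-fold. Hapln1, the link protein that ties aggrecan to hyaluronan, read 16.9, 23.8, 13.9 and 22.6 intensity units, so both KO-labelled arrays were above both WT-labelled arrays. In the table Hapln1 read 0.0238, 0.026, 0.0183 and 0.0267, with the same separation. Its differences between labels did not reach 2-fold in either source and were 0.61 ± 0.33 (control) and 0.57 ± 0.35 (challenged) in the scanner files.

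Matn1, cartilage matrix protein, was above background on 1 array alone. Its intensity was 25.4 on the KO-labelled challenged scanner array, and 8.33, 2.2 and 2.0 on the WT-labelled control, KO-labelled control and WT-labelled challenged arrays, which were not above background. With the dim arrays set to the lowest intensity that was above background on them, the KO-labelled challenged array was at least 2.70-fold above the KO-labelled control and at least 2.91-fold above the WT-labelled challenged array. In the table Matn1 was above background in 0 of 4 columns. Matn3, another matrilin, was above background on 0 of 4 arrays in either source, so no difference is given for it.

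Counted over the members, those above background on at least 1 array of a pair were read against all genes treated in the same way. Of the 9 members, 7 were above background on at least 1 scanner array and 6 on all 4, and 7 and 5 were so in the columns of the table. For the WT-labelled challenge comparison of the scanner files 2 of 6 members differed by 2-fold or more (Pth and Tg, both lower), against 4.41% of all genes. For the KO-labelled challenge comparison 2 of 7 did (Pth lower, Matn1 higher), against 8.72%. Between labels, 1 of 6 did among controls (Pth, lower), against 5.97%, and 3 of 7 among challenged arrays (Pth, Tg and Matn1, all higher in the KO-labelled array), against 8.14%. In the value table, the count was 0 of 6 for the WT-labelled challenge comparison, against 3.38%, and 2 of 7 for the KO-labelled one (Pth higher, Tshr lower), against 4.55%. Between labels in the table it was 0 of 6 among controls, against 5.05%, and 1 of 7 among challenged columns (Pth, higher), against 5.72%. Because the members were selected on such differences, nothing is read from these counts. The comparisons share arrays, so Pth on the WT-labelled challenged array enters 2 of them.

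In the scanner files the median over the members above background was -0.10 for the WT-labelled challenge comparison, against -0.03 over all genes. It was -0.23 against -0.06 for the KO-labelled challenge comparison. Between labels it was 0.09 against -0.03 among controls and 0.58 against -0.06 among challenged arrays. With another background correction (normexp with an offset of 50, then quantile normalization) the Pth differences were -4.02 and -1.13 in the WT-labelled and KO-labelled challenge pairs, and the KO-labelled minus WT-labelled difference among challenged arrays was 0.90, under 2-fold. The Matn1 differences were 0.45 and 0.47 with it, also under 2-fold.

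The genes whose pattern over the 4 scanner arrays lay nearest to those of Tg and Pth were ranked. Nearness was the root mean square difference of levels centred over the 4 arrays, among 2276 genes with a range of at least 1 log2 unit, and 4 arrays leave few independent points. The nearest to Tg was Angptl4, a secreted inhibitor of lipoprotein lipase, at 0.18. Nudt12os at 0.24, Slc28a2b at 0.25 and the phosphodiesterase Pde10a at 0.26 were also among its 5 nearest. Pth ranked 1727 for Tg, and Tg ranked 23 for Pth, at 1.21. The measure is not scaled for range, so genes with the same order of arrays can lie far apart. The range was 5.12 for Pth and 2.03 for Tg. The 5 genes nearest to Pth were Olfr893 (0.72), Olfr352 (0.74), Sult2a4 (0.78), Gpr21 (0.81) and Zfp831 (0.93), of which the first 4 were above background on 2 arrays and Zfp831 on 3. No such ranking is given for Matn1, since 3 of its 4 values were at background.

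**Figure D3:**
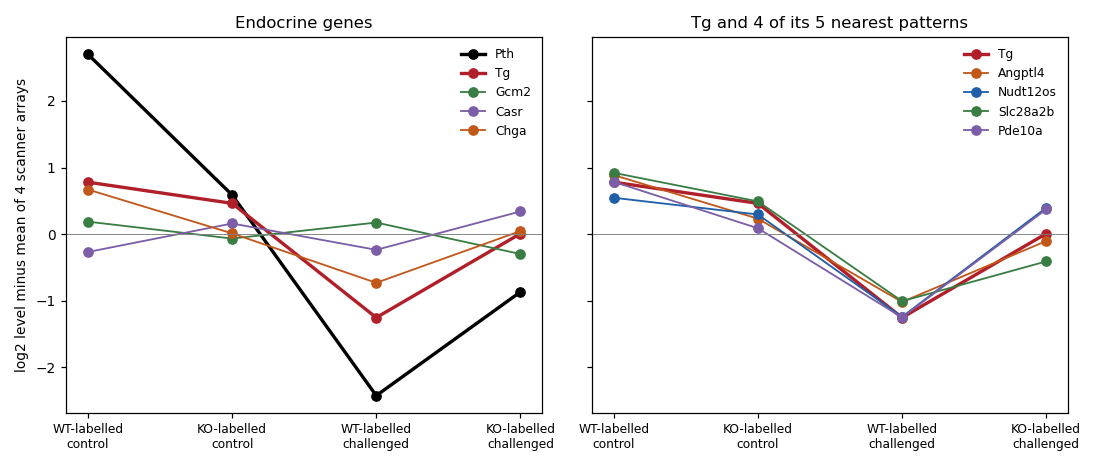
Level on each scanner array minus the mean over the 4 arrays (y axis, log2) for Pth, Tg, Gcm2, Casr and Chga (left) and for Tg with 4 genes among the 5 of nearest pattern (right). Pth, Tg and Chga are lowest on the WT-labelled challenged array, while Gcm2 and Casr stay within 0.61 of a log2 unit from lowest to highest.

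A list of 19 genes of thyroid hormone synthesis was followed beside the members, and the named genes of that list outside the rule were picked after their values were seen. Cdh16, a cadherin of thyroid and kidney epithelium, was lower in the WT-labelled challenge pair of the scanner files, as Tg was (-1.27 ± 0.21). The iodide transporters went the other way: Slc26a4 (pendrin) differed by 4.62 ± 0.20 and Slc5a5 (the sodium iodide symporter) by 1.83 ± 0.35.

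In all, 2 of the 19 thyroid genes were higher and 2 lower by 2-fold in the WT-labelled challenge comparison of the scanner files, and 2 higher and 0 lower in the KO-labelled one (Slc26a4 by 4.19 ± 0.26, and Slc5a5 by at least 2.35-fold). The shares of all genes past 2-fold in either direction were 4.41% and 8.72%. The medians of the 19 thyroid genes were -0.21 and -0.01, against -0.03 and -0.06 over all genes. In the value table, 2 were higher and 0 lower in each challenge comparison, of 17 and 16 above background. There 3.38% (WT-labelled) and 4.55% (KO-labelled) of all genes passed 2-fold in either direction. These 2 were Slc26a4 (1.70 and 1.86) and Duoxa1 (1.95 and 1.27), the maturation factor of a hydrogen peroxide generating oxidase. A second Duoxa1 probe, above background in all 4 columns, had table levels of -6.40 (control) and -6.32 (challenged) in the WT-labelled pair. In the KO-labelled pair its levels were -6.25 and -6.05, so it passed 2-fold in neither. Slc26a4 is also an anion exchanger of airway epithelium, and Nkx2-1, a transcription factor of both thyroid and lung, differed by -0.12 in the WT-labelled challenge pair of the scanner files. The transcription factors Pax8 (0.09) and Foxe1 (-0.39), which with Nkx2-1 specify thyroid follicular cells, differed by less than 2-fold there too.

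Markers of the thyroid C cells, which secrete calcitonin, were checked as another cell type of the same gland. Of their 7 genes 6 were above background in the scanner files, with Calcr on none. Chga, the chromogranin of secretory granules in parathyroid and other endocrine cells, stood at 0.76 on the WT-labelled control, 0.10 on the KO-labelled control, -0.64 on the WT-labelled challenged and 0.13 on the KO-labelled challenged array. It was lower in the WT-labelled challenge pair (-1.40 ± 0.20, 2.64-fold). It was the only 1 of the 6 to pass 2-fold in that comparison, where 4.41% of all genes did in either direction. Calca, which encodes calcitonin and a neuropeptide, differed by 0.68 in the same pair. In the table Chga differed by 0.12 in that pair and 0 of the 7 passed 2-fold, against 3.38% of all genes.

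Few other genes of parathyroid development and function passed 2-fold. Of 15 above background in the scanner files, 1 (Chga) was lower in the WT-labelled challenge comparison and 2 (Gata3 and Pax1) were lower in the KO-labelled one, with none higher in either (4.41% and 8.72% of all genes passed in either direction). Among controls Gata3, a factor that acts upstream of Gcm2 and also in T cells, was higher on the KO-labelled array (3.08 ± 0.21), as was Pax1, a pharyngeal pouch and thymic epithelial factor (1.05 ± 0.22). In the scanner files the KO-labelled control array also carried the markers of immature thymocytes. Their summed level (in units of the array's 75th percentile) was 26.4 there and 3.14 to 4.0 on the other 3 arrays. Of these genes 9 of 10 were at least 2-fold above the WT-labelled control, against 5.97% of all genes in either direction. The value table did not share this. Its sum was 2.90 in the KO-labelled control and 4.07 in the WT-labelled control column. There 0 of 7 of these genes were higher and 1 lower by 2-fold between labels, against 5.05% of all genes. The part of thymocyte RNA in the values of Gata3, Pax1 or the members was not tested. In the value table, 0 of 16 genes of this list passed 2-fold in any of the 4 comparisons, against 3.38% to 5.72% of all genes.

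Acan and Hapln1 passed 2-fold in no comparison, whereas some genes of the wider cartilage list did. Of 35 further cartilage genes with a probe, 32 were above background on at least 1 scanner array and 28 on all 4, and Col11a1, Cnmd and Clec3a on none. The summed level lay between 59.1 and 63.2 on the 4 scanner arrays. That sum is set by the brightest genes and hardly registers dim ones such as Col2a1. On the WT-labelled control array the log2 level was 4.31 for Fgfr3, 3.85 for Sox5 and -6.97 for Col2a1. In the WT-labelled challenge comparison 0 of 29 were higher and 2 lower by 2-fold (Ucma and Prg4), where 4.41% of all genes passed 2-fold in either direction. In the KO-labelled one 5 of 32 were higher (Sox9, Prg4, Col27a1, Pth1r, and Col9a3, whose bound was 1.87-fold) and 3 lower (Col2a1, Col10a1 and Ucma), against 8.72% of all genes. Among controls 3 of 31 were higher on the KO-labelled array (Col2a1, Col10a1 and Comp) and 2 lower (Cytl1 by -1.50 ± 0.20 and Prg4 by -1.19 ± 0.21), against 5.97%. Among challenged arrays 4 of 30 were higher on the KO-labelled array and 0 lower, against 8.14%. The medians over the list were 0.00, 0.03, 0.04 and 0.03 in these 4 comparisons, against -0.03, -0.06, -0.03 and -0.06 over all genes. The genes named here outside the highest of the list were chosen after their values were seen.

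Type II collagen did not follow aggrecan. Col2a1, the main fibre of hyaline cartilage, had a scanner level of -3.56 on the KO-labelled control array against -6.97 on the WT-labelled control, -6.40 on the WT-labelled challenged and -6.91 on the KO-labelled challenged array. It was 10.6-fold higher on the KO-labelled than on the WT-labelled control array (3.41 ± 0.31). Col10a1, the collagen of hypertrophic chondrocytes, was above background on the KO-labelled control array alone, at least 6.24-fold above the WT-labelled control. Ucma, a matrix protein of resting chondrocytes, stood at -5.25, -4.65 and -5.99 on the WT-labelled control, KO-labelled control and KO-labelled challenged arrays and was at background on the WT-labelled challenged array, at least 5.96-fold below its control. On the KO-labelled control array Comp, a pentameric protein of cartilage and tendon, was also higher (1.11 ± 0.22), whereas Acan and Hapln1 differed there by 0.50 ± 0.21 and 0.61 ± 0.33.

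In the value table, 1 of 27 further cartilage genes was higher and 0 lower in the WT-labelled challenge comparison, against 3.38% of all genes past 2-fold in either direction. In the KO-labelled one 4 of 29 were higher and 0 lower, against 4.55%. The 4 include Col2a1 and Ucma, which were at background in the KO-labelled control column and give bounds under 2-fold. Ucma stood at -7.94 in the KO-labelled challenged column, where the background limit of its control column was -8.31. The table did not share the Col2a1 and Col10a1 values. Col2a1 was above background in 1 column (KO-labelled challenged, at least 1.57-fold above its control) and Col10a1 in none. Comp was higher in the KO-labelled control than in the WT-labelled control column by 1.13, close to its scanner difference. Sox9, the master regulator of chondrocytes, which airway epithelium can also express, was higher in that comparison by 1.42 in the table and by 0.35 in the scanner files. Prg4, lubricin, was higher in both challenge comparisons of the table (1.70 and 1.32) but lower in the WT-labelled one of the scanner files (-1.03 ± 0.21). Its second probe was above background on 0 arrays.

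**Figure D4:**
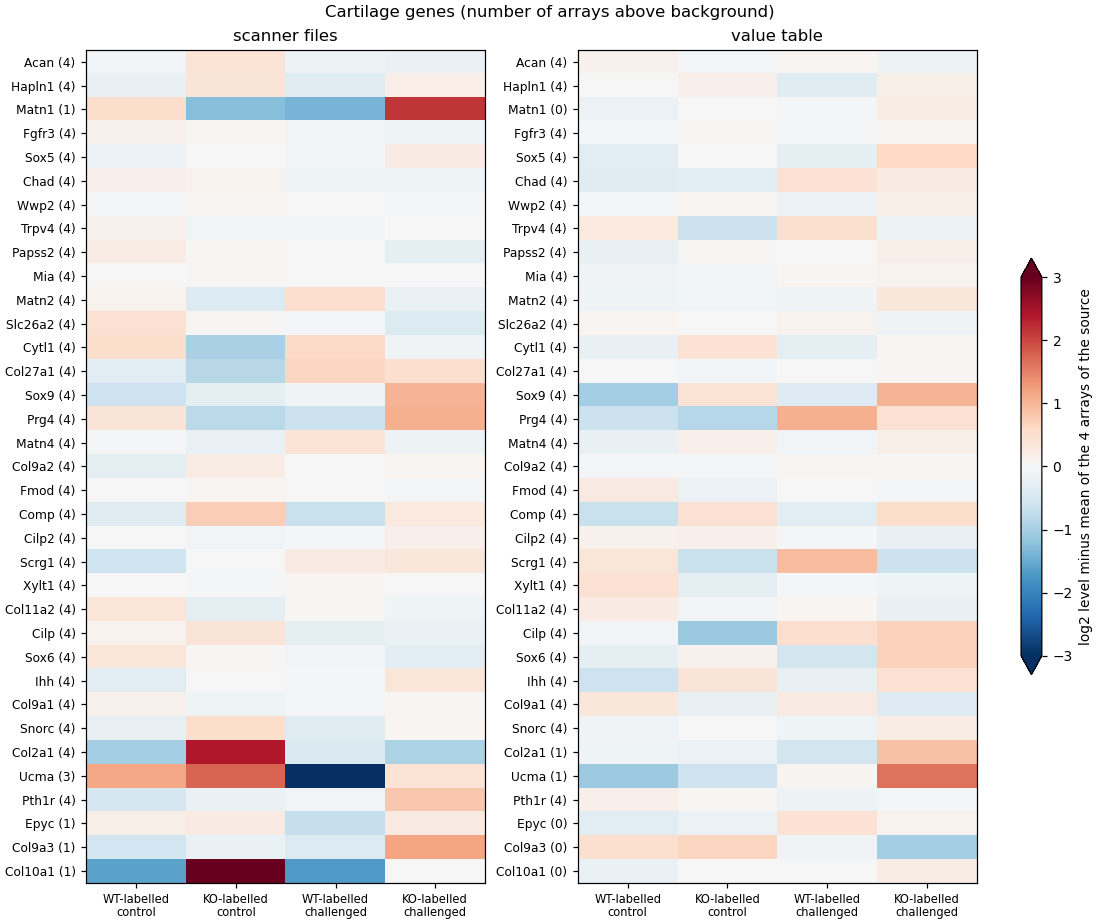
Log2 level minus the mean over the 4 arrays of a source (colour, clipped at 3) for the 3 cartilage members above background and the 32 other cartilage genes (y axis, with the number of arrays above background), by array (x axis). Values at background are shown as measured. Col2a1 and Col10a1 are high on the KO-labelled control array of the scanner files, Ucma is at background on the WT-labelled challenged array, and Acan and Hapln1 pass 2-fold in no comparison.

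Set between the sources, Tg and Pth were the members that differed most. The mean level of Pth was -2.88 over the 4 scanner arrays and -8.73 over the 4 table columns, a difference of 5.85 (57.6-fold), or 35.5-fold with the columns at background set to the background limit. That of Tg was 0.29 and -4.62, a difference of 4.91 (30.1-fold), and its lowest scanner level (-0.96) lay above its highest table level (-4.37). Gcm2 (1.37), Acan (1.29) and Casr (1.11) were also higher in the scanner files, with ranges that did not overlap. Hapln1 was lower there (-1.24). Tshr was at -1.87 as measured but -0.23 with its arrays set to the floor, so no direction is read for it. Matn1 was higher by 2.10 as measured and by 0.88 with the floor. In all, 8 of 8 members above background in either source differed by 2-fold or more between the mean levels as measured, 6 higher and 2 lower in the scanner files, against 44.7% of all genes, whose median was 0.43. Of these, Tshr and Matn1 were under 2-fold with the floor. The members were selected partly on this difference, and levels set across separately normalized sources are a description.

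Markers of other tissues differed between the sources as well. Over all genes, 44.7% differed by 2-fold or more in either direction, and the median was 0.43. The squamous and oesophageal epithelium list was higher in the scanner files for 13 of 13 genes, with a median of 3.85, and its summed level was 53.3 to 61.8 there and 0.406 to 0.462 in the table, where Sprr3, Dsg3 and Krtdap were above background in no column. Ciliated cell genes were higher for 8 of 8 (median 2.17). Endothelial genes were lower for 7 of 8 (median -6.18), with a summed level of 3.98 to 5.43 against 101 to 109. Smooth muscle genes were lower for 7 of 7 (-6.64), cardiac muscle genes for 7 of 8 (-5.43) and alveolar epithelial genes for 6 of 10 (-1.68). The cartilage list had 15 genes higher and 5 lower of 32 (median 0.92), the thyroid list 8 higher and 6 lower of 19 (0.95), and the parathyroid list 7 higher and 4 lower of 16 (0.78). Skeletal muscle, which also surrounds the neck airway, was higher for 0 and lower for 6 of 13 (-0.82), a share near that of all genes. The part of neighbouring tissue in the member values was not tested.

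**Figure D5:**
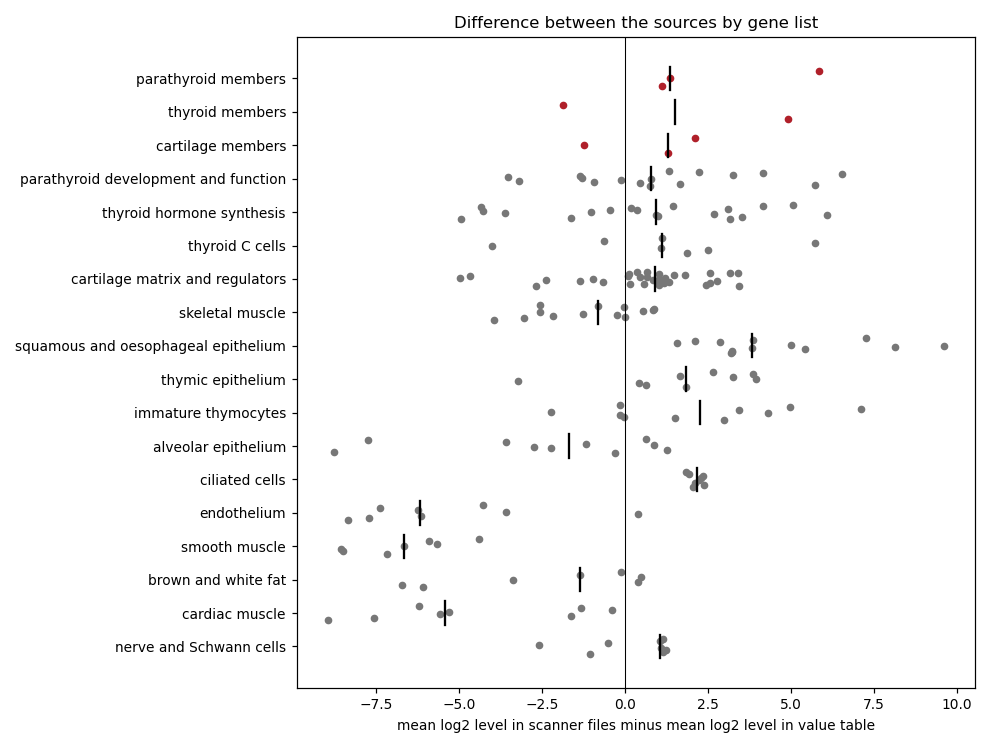
Mean log2 level over the 4 scanner arrays minus mean log2 level over the 4 table columns (x axis), as measured, for each gene above background in either source (points), by gene list (y axis), with the median of each list as a vertical bar. The member lists are in red; Pth at 5.85 and Tg at 4.91 lie to the right, Tshr and Hapln1 to the left of 0, and the endothelium, smooth muscle and cardiac muscle lists centre far to the left.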

How the data were processed

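RNA of 4 groups (1 array each, 4 samples pooled) was labelled from 200 ng. Per the file headers, Agilent Feature Extraction 11.5.1.1 wrote the spot intensity in the scanner files, and the deposited flags give whether a spot is above background or uneven. The authors' deposited value table holds a linear signal, with its making not given in the sources used here. The deposited intensity and signal were taken to log2 here, and from scanner values the array's 75th percentile (non-control probes) was subtracted. Negative control spots had a median intensity of 1.90 to 2.62. Of 39410 probes, 28312 were named by transcript accession and 2207 by symbol through RefSeq (GRCm38.p6). Of the non-control spots, 20 were left out as uneven on an array, and 0 were saturated. On 99.2% of scanner spots the 5 times background rule and Agilent's flag made one call. The probe with the highest mean scanner level stood for a gene, and a gene above background on at least 1 array of a pair was called at 2-fold or more. A probe above background on 1 side gives "at least", against the lowest intensity above background of the other array (scanner files) or the background limit (table). Agilent's error covers the reading of a spot and not variation between mice, and precision is limited by the number of arrays.

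The members and gene lists were chosen with earlier results of these data known. Named were the 9 members, up to 6 genes of highest mean scanner level per list where they bear on a member, the 5 nearest patterns, and genes said to be picked after their values were seen. Some genes of the lists are not reported here by name. The plan treated the table as an alternative to the scanner files; both are given because their columns did not match. Alternatives were scaling to the median of detected probes, quantile normalization, normexp (limma 3.58.1, R 4.3.3), other fold rules and background filters, and the mean over probes. The files held 0 further columns of sample values.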

Additional observations from a re-analysis of the deposited data

Results flagged for a closer look

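The difference of Pth between labels had opposite signs in the 2 treatments of the scanner files. The KO-labelled array was below the WT-labelled one among controls (-2.11) and above it among challenged arrays (1.56), which is a difference of 3.67 on the log2 scale (12.7-fold). With 1 array per group that difference was not tested. In the table Pth was at background in 3 of 4 columns, so the same quantity has no measured value there. No group had enough arrays to look for a sample far from the others.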

How the results depend on the processing

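Each group has 1 array, so leaving out a replicate is not possible. No paired analysis was possible because each group has 1 array. Of the 64 counts of members under alternatives, 47 stayed within 1.5 times and 17 moved. Of 130 differences of single members, 111 stayed the same and 19 moved, and within a source no difference past 2-fold turned its direction. In the scanner files, the WT-labelled challenge count of 2 was 4 with no background filter and 0 in the table. The KO-labelled challenge count of 2 was 1 with normexp, 1 at 3-fold and 1 when both arrays had to be above background. The control label count of 1 was 2 at 1.5-fold, 2 with no filter and 0 in the table, and the challenged label count of 3 was 1 with normexp, 1 at 3-fold and 1 in the table. In the table, the KO-labelled challenge count of 2 was 1 at 3-fold, 0 with both columns above background and 1 with the mean over probes. The control label count of 0 was 3 at 1.5-fold, and the challenged label count of 1 was 0 with both columns above background and 2 with no filter. The scalings moved the median of all genes by at most 0.07, and 16 of 16 differences between sources stayed the same. The list medians were tried only with scaling to the median of detected probes, and 144 of 144 stayed the same. That scaling shifts all genes of a comparison by one amount, which was under the 0.14 allowed for a value to count as the same. This outcome was therefore fixed in advance, and nothing is read from it. Normexp could not be run on the table. For low probes, signal over background limits the differences: an array at background gives a bound only, and the cause of the moves was not tested.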
